A study of Mus musculus with 18 samples.

Results

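ATP-binding cassette (ABC) transporters were compared between endothelial cells and the other cells of the developing mouse retina. The members are the genes whose symbol begins with Abc followed by a subfamily letter from a to g and a number, and that were named by a probe set with exactly 1 gene symbol on any of the 3 array chips. By this rule 43 genes with 75 probe sets were found, of 15964 genes named in the same way on the chips. A further probe set carried Abcc2 beside another symbol and was left out. Of the 43 genes, 23 had 1 probe set, 13 had 2, 5 had 3, Abcc5 had 4 and Abcf2 had 7.

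The GFP-positive cells, labelled as endothelial, and the GFP-negative cells, labelled as the control, were both sorted by flow cytometry from papain-digested, pooled retinas of FVB/N mice at postnatal day 8. All animals were homozygous for a Tie2-GFP transgene, so both populations carried it and no population came from mice without it. The Tie2 promoter is active in endothelial cells and is also known from some blood-forming and myeloid cells, and the GFP-negative fraction holds every cell that did not reach the GFP gate. Amplified RNA was hybridised to the Affymetrix MGU74v2 chips A, B and C. Each population was run on 3 arrays of every chip, which makes 18 arrays. The labels do not say that the 3 arrays came from separate pools of animals, so p-values measure the spread between these arrays only, which may be technical.

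ABC proteins bind and hydrolyse ATP with a conserved nucleotide-binding domain, and most use it to move lipids, drugs, peptides or metal complexes across membranes. At the blood-brain and blood-retina barriers, the efflux pumps P-glycoprotein (Abcb1a in rodent vessels), breast cancer resistance protein (Abcg2) and multidrug resistance protein 4 (Abcc4) are known from the luminal side of capillary endothelium, where they return drugs and metabolites to the blood. Subfamily A mostly moves sterols and phospholipids, subfamily D serves peroxisomes and lysosomes, and subfamilies E and F lack membrane domains and act in translation.

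The cell sort was checked with marker genes, 1 probe set each. Endothelial markers were higher in GFP-positive cells for 10 of 12 genes, and the summed intensity of the 11 on chip A was 14871, 18029 and 17798 in the GFP-positive arrays, against 2251 to 3330 in the GFP-negative arrays. Kdr and Pecam1 did not pass. Most of the GFP-negative sum came from Kdr, at 2796, 2128 and 1811 there, against 1986, 2447 and 2272 in GFP-positive arrays. Of the markers of other cells, those of Müller glia passed the test as lower for 6 of 8, of neurons for 3 of 7 (with 1 higher), of photoreceptors for 3 of 9 and of astrocytes for 1 of 5. Leukocyte markers passed as higher for 2 of 10 (C1qb and Laptm5), and none passed for pericytes (of 9), erythroid cells (of 4) or pigment epithelium (of 7). Over all probe sets 7.42% were higher and 8.86% lower, so counts this small in short lists say little about cell content. GFP-positive replicate 3 stood apart. Its rank correlation with the other arrays of its population was 0.911 to 0.929 over the 3 chips, against 0.960 to 0.987 for all other pairs within a population. ABC probe sets whose call changed without this array are therefore given with and without it. Without it, lower markers numbered 7 for Müller glia, 2 for photoreceptors (with 1 higher), 1 for leukocytes (with 2 higher) and 1 for pericytes. Of the erythroid markers 1 was then higher, and the other lists kept their counts. Over all probe sets 13% were then higher and 13.1% lower. Array medians ranged from 43.3 to 44.5 intensity units on chip A, 40.7 to 44.6 on chip B and 32.5 to 34.4 on chip C, and the number of arrays limited the precision.

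Promoters of the genes with the largest differences are shown because the main results turn on them. The 3 efflux pump genes that rose in endothelial cells, Abcb1a, Abcc4 and Abcg2, and Abca5, the member with the largest difference in the other direction, are given as RefSeq windows from 250 bases before to 50 bases after the annotated start (build GRCm38.p6), on the gene's own strand. They lie at chr5:8566841-8567140 on the plus strand, chr14:118706170-118706469 on the minus strand, chr6:58584283-58584582 on the plus strand and chr11:110337667-110337966 on the minus strand. Capitals mark matches on either strand to 4 motifs: the GC box GGGCGG, the ETS core CCGGAAG, the CCAAT box CCAAT and the TATA box TATAAA.
Abcb1a: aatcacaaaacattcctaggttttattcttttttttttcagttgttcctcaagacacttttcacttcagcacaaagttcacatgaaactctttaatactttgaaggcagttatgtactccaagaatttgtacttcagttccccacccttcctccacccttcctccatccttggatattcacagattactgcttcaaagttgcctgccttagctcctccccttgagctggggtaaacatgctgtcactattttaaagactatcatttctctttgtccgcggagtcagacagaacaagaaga
Abcc4: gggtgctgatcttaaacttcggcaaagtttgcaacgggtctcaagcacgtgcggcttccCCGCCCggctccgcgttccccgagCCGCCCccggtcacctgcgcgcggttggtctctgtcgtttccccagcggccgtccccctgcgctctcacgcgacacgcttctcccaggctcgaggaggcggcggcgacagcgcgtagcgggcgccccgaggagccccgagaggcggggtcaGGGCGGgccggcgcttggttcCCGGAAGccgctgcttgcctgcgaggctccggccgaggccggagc
Abcg2: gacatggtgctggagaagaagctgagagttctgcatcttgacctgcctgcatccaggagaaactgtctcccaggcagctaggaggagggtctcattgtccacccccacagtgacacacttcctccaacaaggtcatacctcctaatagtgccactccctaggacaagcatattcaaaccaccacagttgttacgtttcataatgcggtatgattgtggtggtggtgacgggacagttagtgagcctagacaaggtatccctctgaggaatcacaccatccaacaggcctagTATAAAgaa
Abca5: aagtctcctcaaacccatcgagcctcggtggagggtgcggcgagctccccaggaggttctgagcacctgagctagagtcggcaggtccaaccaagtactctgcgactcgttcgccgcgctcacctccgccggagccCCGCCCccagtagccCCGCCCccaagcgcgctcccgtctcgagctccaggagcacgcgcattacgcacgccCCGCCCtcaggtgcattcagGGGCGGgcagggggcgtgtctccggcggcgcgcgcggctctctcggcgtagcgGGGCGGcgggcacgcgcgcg
The Abcb1a window held 2 CpG dinucleotides and none of the 4 motifs. The Abcc4 window held 41 CpG, 3 GC boxes and 1 ETS core, and the Abca5 window held 40 CpG and 5 GC boxes. The table lists a further Abcc4 start with 6 CpG and none of the motifs. It lists 3 Abcg2 starts, of which the most upstream is printed with 3 CpG and 1 TATA box, the middle one held 10 CpG, 2 GC boxes, 1 CCAAT box and 1 TATA box, and the most downstream held 28 CpG and 4 GC boxes. Over all 32851 windows of the same length, 35.7% held a GC box, 8.86% an ETS core, 37.4% a CCAAT box and 13.6% a TATA box, and the median was 7 CpG. Windows were found for 33 of the 43 genes, 40 windows in all, of which 21 held a GC box, 4 an ETS core, 14 a CCAAT box and 7 a TATA box.

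Across the family, 3 efflux pumps were far higher in endothelial cells, 1 lipid transporter gene was far lower, and most other members differed little between the populations. Among the genes with the largest differences, Abcb1a, Abcc4 and Abca5 each rested on 1 probe set, with no other of the gene to compare. Differences are given on a log2 scale of intensity plus 16, with GFP-negative subtracted from GFP-positive, from a limma fit over all probe sets of a chip, and a probe set passed when its Benjamini-Hochberg adjusted p was under 0.05 within the chip. This scale understates the change of dim probe sets. Of the 75 probe sets, 5 were higher (Abcb1a, Abcc4, Abcg2, Abca3 and Abcf1) and 4 were lower (Abca5, Abcd3, Abcd2 and Abcc9), 12.0% in either direction. Over all 36701 probe sets the share was 16.3%, with 7.42% higher and 8.86% lower, so the family as a whole was not called more often than the rest. On chip A, 2 of 28 were higher and 1 lower, where 9.09% of all probe sets were higher and 9.25% lower (18.3% in either direction). On chip B, 3 of 26 were higher and 2 lower, where 9.6% of all were higher and 11.3% lower (20.9% in either direction). On chip C, none of 21 was higher and 1 was lower, where 3.4% of all were higher and 5.88% lower (9.28% in either direction). Every GFP-positive array lay above every GFP-negative array at 18 of the 75 (24.0%, against 21.3% of all probe sets), and below at 13 (17.3%, against 16% of all). By chip, these were 4 above and 5 below on A (19.8% and 17.2% of all), 9 and 5 on B (25.7% and 17.1% of all) and 5 and 3 on C (18.3% and 13.5% of all). The median difference was 0.07 over the family and 0.05 over all probe sets, and 7 probe sets of 5 genes (9.33% of the 75) differed by more than 1 in either direction, against 7.89% of all. In these bulk samples, fewer cells of a type and less RNA per cell cannot be told apart.

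By subfamily, A had 1 probe set higher and 1 lower of 19 (12 genes), B 1 higher of 10 (8 genes), C 1 higher and 1 lower of 18 (10 genes) and D 2 lower of 5 (3 genes). Subfamily E had none of 2 (1 gene), F 1 higher of 12 (3 genes) and G 1 higher of 9 (6 genes). Over all probe sets 7.42% were higher and 8.86% lower. With GFP-positive replicate 3 left out, subfamily A had 2 higher and 6 lower, B 1 higher, C 2 higher and 1 lower, D 1 lower, E 1 higher, F 2 higher, and G 3 higher and 1 lower, where 13% of all were higher and 13.1% lower. With all arrays, the subfamily medians lay between -0.13 in E and 0.29 in G. Of the 66 probe sets that did not pass, 59 had a 95% interval of the difference within 1 on either side of 0, that is, within a 2-fold change on this scale. A mean intensity under 50 over the 6 arrays was found for 40 of these 66. Presence calls were not used here, so the intensity of such dim probe sets may be background.

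**Figure D1:**
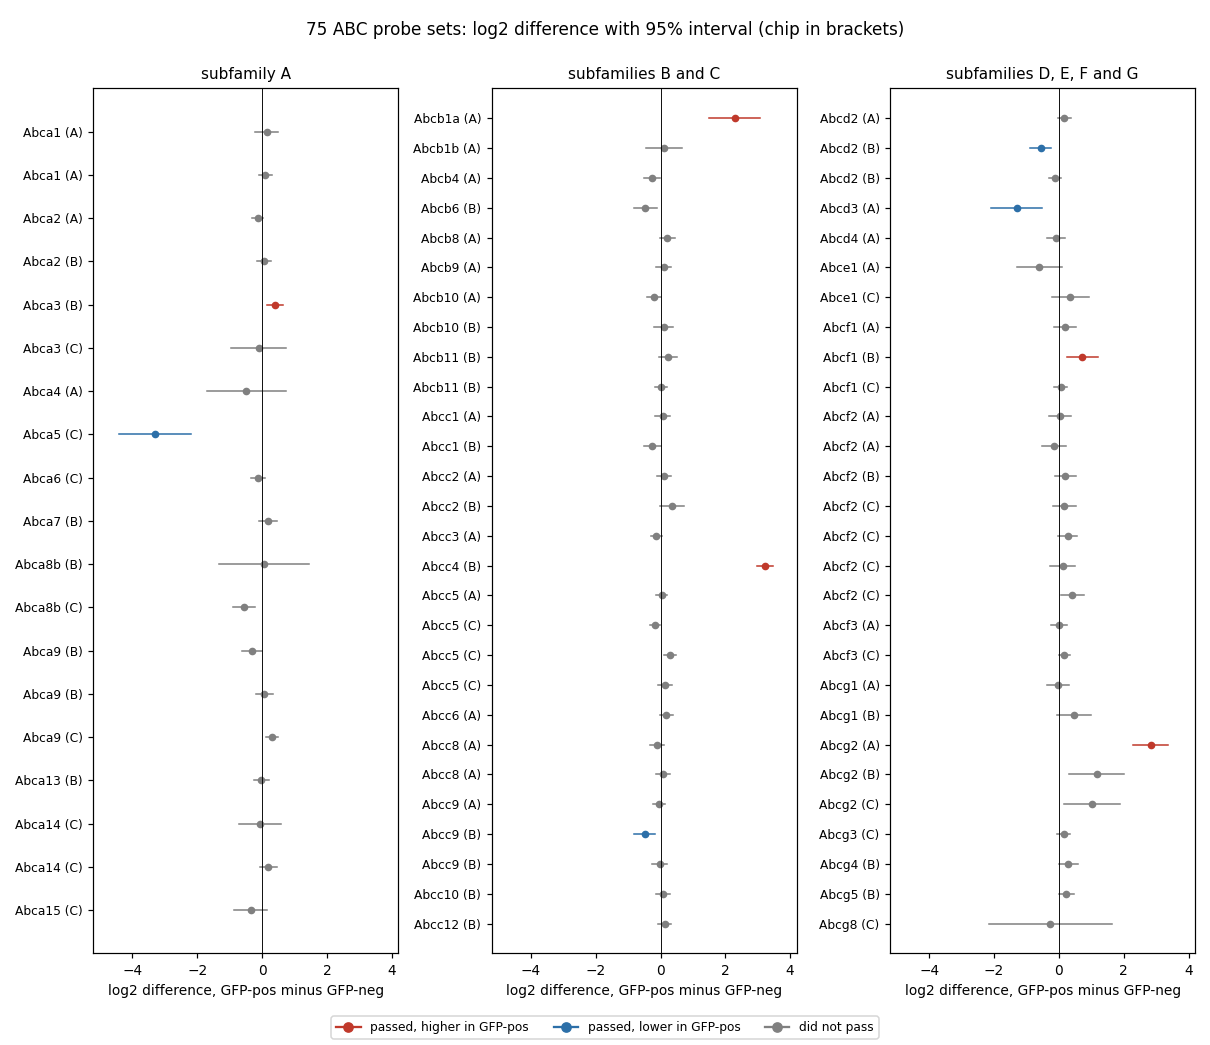
Log2 difference (GFP-positive minus GFP-negative, x axis) of each of the 75 ABC probe sets, with its 95% interval, grouped by subfamily, with the chip in brackets after the gene. Abcb1a, Abcc4 and Abcg2 lie far to the right, Abca5 far to the left, and most others near 0.

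The efflux pumps of the barrier gave the largest rises. Abcc4, which exports cyclic nucleotides, urate and drug conjugates, had intensities of 321, 316 and 271 in GFP-positive arrays, against 20.8, 16.4 and 17.01 in GFP-negative arrays. Every GFP-positive array was above every GFP-negative array, and the spread within each population was small beside the gap between them. The means were 302.5 ± 27.2 and 18.0 ± 2.37 (SD, n = 3 arrays each). The ratio of means was 16.8-fold. The GFP-negative level lay below the chip's array medians and may be background, so this ratio may understate the change. The log2 difference was 3.22 (SE 0.11, adjusted p = 1.75e-05, limma).

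Abcg2, which exports urate, porphyrins and many drugs, had 1536, 1369 and 1329 intensity units in GFP-positive arrays on chip A, against 268, 157 and 149.6 in GFP-negative arrays. The groups did not overlap, and GFP-negative replicate 1 was the highest of its population. The means were 1411 ± 110 and 191 ± 66.0, a 7.37-fold ratio and a log2 difference of 2.83 (SE 0.22, adjusted p = 0.000627, limma). Chips B and C each held another Abcg2 probe set, both much dimmer. On chip B its intensities were 69.3, 24.6 and 14.4 in GFP-positive arrays, against 6.33, 3.06 and 6.07 in GFP-negative arrays. On chip C they were 62.8, 22.8 and 13.0 in GFP-positive arrays, against 6.14, 6.51 and 5.64 in GFP-negative arrays. Both lay higher in every GFP-positive array, with GFP-negative levels that may be background, but neither passed (log2 differences 1.16 and 1.01, adjusted p = 0.0637 and 0.15). On both chips GFP-positive replicate 1 was more than 4 times as bright as replicate 3, a spread that the chip A probe set did not have. Without GFP-positive replicate 3 both passed (1.48, adjusted p = 0.00875, and 1.32, adjusted p = 0.0202), and the chip B probe set also passed without GFP-positive replicate 1 (adjusted p = 0.0308).

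Abcb1a, the P-glycoprotein gene of rodent brain and retinal capillaries, had 192, 242 and 91.6 intensity units in GFP-positive arrays, against 19.9, 19.7 and 23.0 in GFP-negative arrays. The groups did not overlap, and GFP-positive replicate 3 lay at 0.422 times the mean of the other GFP-positive arrays. The means were 175 ± 76.4 and 20.9 ± 1.88, a ratio of at least 8.38-fold, since the GFP-negative level may be background, and a log2 difference of 2.28 (SE 0.32, adjusted p = 0.00535, limma), and the difference was 2.65 without GFP-positive replicate 3 (adjusted p = 0.000144). In the RefSeq order of chromosome 5, Abcb1a is followed by its close relatives Abcb1b and Abcb4. Abcb1b, the other rodent P-glycoprotein gene, had 14.4, 13.0 and 36.0 in GFP-positive arrays, against 18.7, 17.3 and 15.96 in GFP-negative arrays, and only GFP-positive replicate 3 lay above the GFP-negative arrays. It did not pass (0.11, 95% interval -0.46 to 0.67). Abcb4, which moves phosphatidylcholine into bile, averaged 28.9 ± 1.12 against 38.5 ± 6.38, a difference of -0.27 that missed the threshold (adjusted p = 0.131). The difference between Abcb1a and its neighbours was not tested, since it would set 1 probe set against another.

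**Figure D2:**
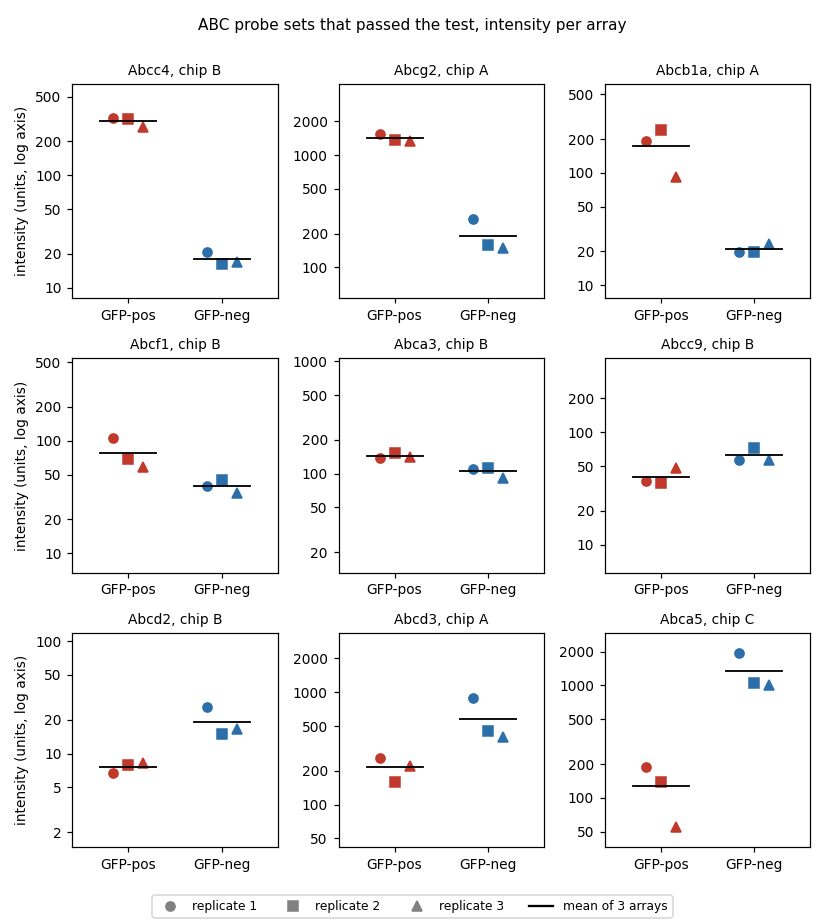
Intensity per array (log axis, intensity units, the same fold range in every panel) of the 9 ABC probe sets that passed, GFP-positive arrays in red on the left and GFP-negative arrays in blue on the right, with marker shapes for replicate numbers and bars for means. Abcc4, Abcg2, Abcb1a and Abca5 show wide gaps between the populations, and the other 5 narrower gaps.

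The remaining multidrug resistance proteins of subfamily C did not pass on any probe set. Of the 11 efflux genes listed for the barrier, 3 had a probe set that was higher and none had one that was lower, over 18 probe sets with a median difference of 0.13, where 7.42% of all probe sets were higher. Without GFP-positive replicate 3, 6 of the 18 were higher, of the same 3 genes and Abcc5, where 13% of all were. Abcc1, which exports glutathione conjugates and leukotriene C4, was 60.9 ± 6.43 against 75.7 ± 7.58 on chip B (-0.25, adjusted p = 0.151) and had a difference of 0.06 on chip A. Abcc5, an exporter of cyclic nucleotides and organic anions, was 81.0 ± 4.75 against 78.4 ± 2.84 on chip A, with a 95% interval of the difference from -0.13 to 0.21. Of its 3 probe sets on chip C, 1 lay higher in every GFP-positive array at 85.9 ± 1.81 against 67.0 ± 5.49. With all arrays its difference was 0.30 (adjusted p = 0.0628), which did not pass, and when GFP-positive replicate 3 was left out it was 0.29 (adjusted p = 0.0477), which did. Another lay lower in every GFP-positive array and did not pass (-0.18). The remaining one overlapped between the populations and did not pass (0.14). Abcc2, Abcc3, Abcc6, Abcc10 and Abcc12 had differences between -0.13 and 0.36, and none of them passed.

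The largest difference towards GFP-negative cells was in the sterol and phospholipid transporters. Abca5, a lysosomal membrane protein linked to cholesterol handling, had 188, 138 and 54.8 intensity units in GFP-positive arrays, against 1958, 1048 and 1010.3 in GFP-negative arrays on chip C. Every GFP-positive array was below every GFP-negative array, GFP-positive replicate 3 was the lowest and GFP-negative replicate 1 the highest. The means were 127 ± 67.5 and 1339 ± 537, so GFP-negative cells were 10.5-fold brighter, and the log2 difference was -3.30 (SE 0.45, adjusted p = 0.00872, limma). Without GFP-positive replicate 3 the difference was -2.86 (adjusted p = 0.00212). In the RefSeq order of chromosome 11, Abca8b, Abca8a, Abca9, Abca6 and Abca5 follow each other. Of these neighbours, Abca6 did not pass at 12.1 ± 1.89 against 14.8 ± 2.14 (-0.13), and the 3 Abca9 probe sets had differences of -0.32, 0.07 and 0.31, none of which passed. The last of these, on chip C, lay at 25.8, 27.9 and 24.1 in GFP-positive arrays, against 18.2, 19.8 and 15.5 in GFP-negative arrays, and reached the threshold once GFP-positive replicate 3 was left out (0.34, adjusted p = 0.0305).

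Abca3, known for loading phospholipid into the lamellar bodies of lung, was the other lipid transporter that passed. Its chip B probe set had 138, 151 and 141 intensity units in GFP-positive arrays, against 109, 113 and 92.2 in GFP-negative arrays. The groups did not overlap, and the gap was narrow (0.40, SE 0.10, adjusted p = 0.0349). Its chip C probe set had 54.4, 53.8 and 143.9 in GFP-positive arrays, against 75.1, 104 and 73.3 in GFP-negative arrays, where only GFP-positive replicate 3 lay above the GFP-negative arrays. This probe set did not pass (-0.11), and without that array it passed in the opposite direction to the chip B probe set (-0.50, adjusted p = 0.0473).

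The regulated sterol exporters Abca1 and Abcg1, which load cholesterol onto apolipoprotein A-I and high-density lipoprotein, did not differ detectably. Abca1 was 373 ± 33.1 against 341 ± 62.9 (0.14, 95% interval -0.21 to 0.48), and its dimmer probe set differed by 0.10. Abcg1 was 229 ± 44.0 against 233 ± 4.37 on chip A (-0.04, 95% interval -0.38 to 0.30) and 109.9 ± 38.3 against 72.7 ± 11.5 on chip B (0.47, adjusted p = 0.184). Its relative Abcg4, known from neurons and glia, averaged 139 ± 6.35 against 111.5 ± 16.8, a difference of 0.29 that missed the threshold (adjusted p = 0.138). Abca2, a lysosomal member known from oligodendrocytes, had differences of -0.14 and 0.06, and Abca7 was 149 ± 19.1 against 129 ± 12.6 (0.18). Abcg5, a subunit of the intestinal and hepatic sterol exporter, differed by 0.23, Abcb11, the bile salt export pump, by 0.23 and 0.03, Abcg3 by 0.14 and Abca13 by -0.03, and none passed. Over the 16 genes of this role, 24 probe sets had a median difference of 0.06, with 1 higher and 1 lower, where 7.42% of all probe sets were higher and 8.86% lower. With GFP-positive replicate 3 left out, the role had 2 higher and 5 lower, where 13% of all were higher and 13.1% lower.

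Of the 5 probe sets of subfamily D, whose members serve peroxisomes or lysosomes, 2 were lower and none was higher, where 8.86% of all probe sets were lower. Abcd3, the major membrane protein PMP70 of peroxisomes, had 261, 160.3 and 220.5 intensity units in GFP-positive arrays, against 881, 451 and 403 in GFP-negative arrays. The groups did not overlap, and GFP-negative replicate 1 was much the brightest GFP-negative array. The means were 214 ± 50.7 and 579 ± 263, a log2 difference of -1.31 (SE 0.33, adjusted p = 0.0422), and the call was lost whichever array was left out. Abcd2, a transporter of very-long-chain fatty acids, was dim on chip B at 6.69, 7.88 and 8.30 against 26.0, 14.9 and 16.7. All GFP-positive arrays were lower there, and this probe set passed (-0.56, adjusted p = 0.0277). Its other probe sets did not pass and differed in sign. The chip A probe set lay higher in every GFP-positive array (0.17) and the other chip B probe set lower in every one (-0.12). Abcd4, which serves cobalamin release from lysosomes, was 42.6 ± 3.88 against 46.1 ± 7.99 (-0.08), and Abcb9, a lysosomal peptide transporter, was 60.8 ± 8.31 against 55.2 ± 1.16 (0.10). Beside these, Pex19, the chaperone that brings peroxisomal membrane proteins to the organelle, was 83.9, 89.2 and 90.6 against 145, 178 and 149 (-0.73, adjusted p = 0.00395), and its docking partner Pex3 was 72.5, 76.2 and 53.5 against 138, 118 and 108 (-0.73, adjusted p = 0.0142).

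**Figure D3:**
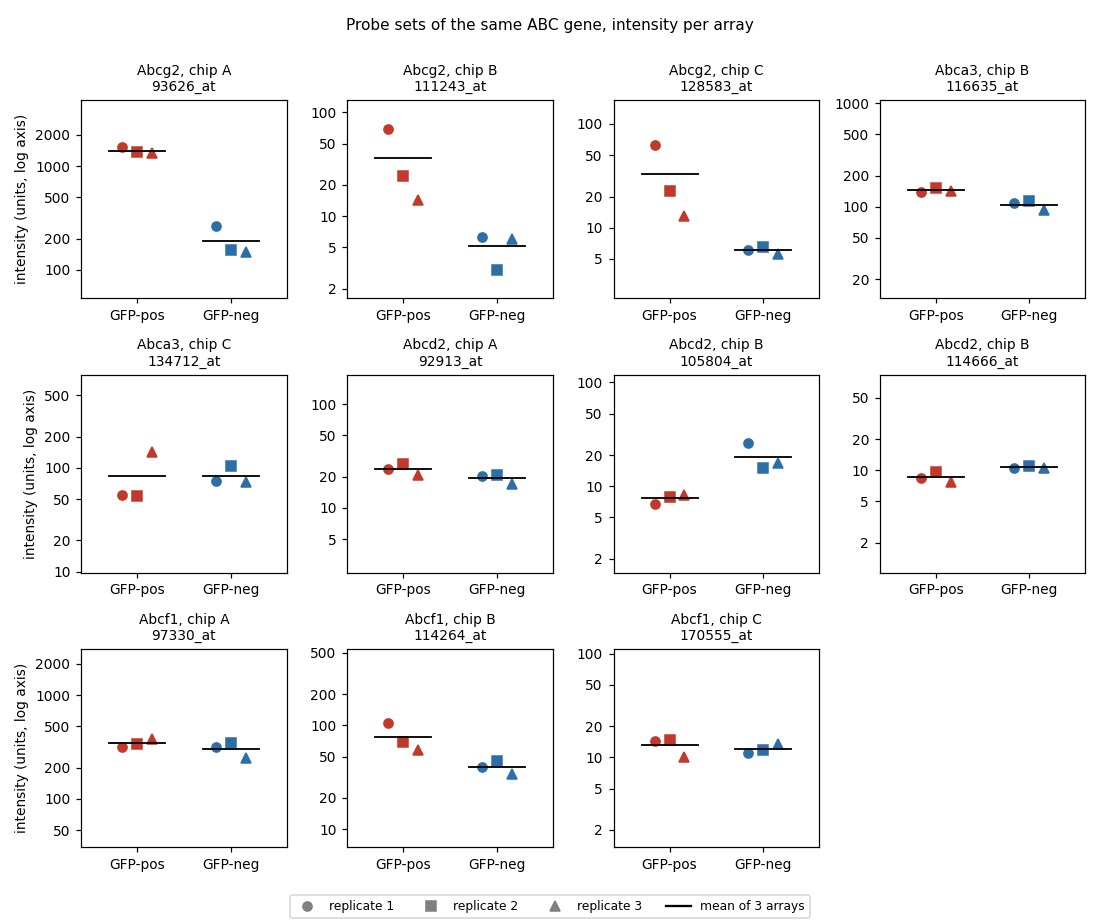
Intensity per array (log axis, intensity units, the same fold range in every panel) of all probe sets of Abcg2, Abca3, Abcd2 and Abcf1, GFP-positive arrays in red on the left and GFP-negative arrays in blue on the right. The Abcg2 probe sets lie higher in GFP-positive arrays on all 3 chips, while those of Abca3 and Abcd2 differ in direction.

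The channel regulators of subfamily C are the sulphonylurea receptors, which gate potassium channels. Abcc9, known from vascular pericytes and smooth muscle, where it pairs with the channel Kcnj8, had 36.6, 35.0 and 47.9 intensity units in GFP-positive arrays, against 57.1, 73.1 and 56.4 in GFP-negative arrays on chip B. The groups did not overlap, and the difference passed narrowly (-0.49, SE 0.13, adjusted p = 0.046). The other Abcc9 probe sets, 1 on chip A and 1 on chip B, did not pass (-0.04 and -0.03). Kcnj8 did not pass at 67.0, 51.4 and 51.2 against 51.3, 56.5 and 52.8 (0.06). None of the 9 pericyte markers passed, and the summed intensity of the 8 on chip A was 229, 229 and 325 in GFP-positive arrays, against 275 to 318 in GFP-negative arrays, with no marker at 0. Without Rgs5 the other 7 summed to 195, 196 and 223, against 222 to 246. Rgs5, a signalling regulator of pericytes, had 33.9, 32.8 and 102.8 in GFP-positive arrays, against 53.9 to 71.4 in GFP-negative arrays. Its difference was -0.20 with all arrays (adjusted p = 0.766), and without GFP-positive replicate 3 it passed as lower (-0.63, adjusted p = 0.0143), as Abcc9 did (-0.59, adjusted p = 0.0157). No other pericyte marker passed without that array, where 13.1% of all probe sets were lower. Des and Notch3, markers of the same cells, lay lower in every GFP-positive array and did not pass (-0.17 each). The arrays of Pdgfrb, Cspg4, Anpep, Acta2, Myh11 and Tagln overlapped between the populations, with differences from -0.21 in Acta2 to 0.10 in Myh11. The part of pericytes in the Abcc9 difference was not tested. Abcc8, the sulphonylurea receptor of pancreatic beta cells and neurons, had differences of -0.12 and 0.07, and neither probe set passed.

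The mitochondrial members of subfamily B did not pass. Abcb6, a porphyrin transporter, had 57.9, 57.7 and 48.6 intensity units in GFP-positive arrays, against 94.8, 90.9 and 63.0 in GFP-negative arrays. Its arrays did not overlap, but the difference of -0.47 missed the threshold (adjusted p = 0.0717), and it reached it when GFP-negative replicate 3 was left out (adjusted p = 0.0181). Abcb8 was 90.3 ± 12.1 against 75.6 ± 2.36 (0.21), and Abcb10, known for its part in haem synthesis in red cell precursors, had differences of -0.20 and 0.10.

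Members without membrane domains act in translation. Abcf1, which binds initiation factor eIF2, had 107, 68.9 and 58.0 intensity units in GFP-positive arrays on chip B, against 39.9, 45.1 and 34.1 in GFP-negative arrays. Again no arrays overlapped, GFP-positive replicate 1 was the highest, and the difference passed (0.72, SE 0.20, adjusted p = 0.0437). Its other probe sets did not pass, at 345 ± 31.5 against 302 ± 48.1 on chip A (0.19) and 13.1 ± 2.54 against 12.1 ± 1.17 on chip C (0.05). Abcf2 had differences between -0.15 and 0.41 over its 7 probe sets, and Abcf3 had 0.00 and 0.16, none of which passed. The chip C probe set of Abcf2 with the largest difference passed without GFP-positive replicate 3 (0.55, adjusted p = 0.0171). Abce1, which splits ribosomes for reuse, differed in sign between its probe sets. On chip A it had 145, 126 and 60.2 intensity units in GFP-positive arrays, against 184, 148.5 and 169 in GFP-negative arrays (-0.60, adjusted p = 0.23). On chip C it had 90.6, 88.4 and 44.7 in GFP-positive arrays, against 52.0, 47.0 and 61.5 in GFP-negative arrays (0.34, adjusted p = 0.435). In both, GFP-positive replicate 3 was the lowest of its population, and without it the chip C probe set passed (0.61, adjusted p = 0.01).

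In a further group of members GFP-positive replicate 3 lay far above the other GFP-positive arrays. Abca4, which clears retinoid from photoreceptor outer segments, had 36.0, 43.4 and 177 intensity units in GFP-positive arrays, against 90.4, 114 and 102 in GFP-negative arrays. Replicates 1 and 2 lay below and replicate 3 above all GFP-negative arrays. Its difference was -0.48 with all arrays (adjusted p = 0.593), which did not pass, and -1.08 when replicate 3 was left out (adjusted p = 0.00245), which passed as lower. Abcg8, the partner of Abcg5 in sterol export, showed the same order on chip C at 37.2, 42.0 and 380 against 110, 142 and 90.4. It differed by -0.26 with all arrays (adjusted p = 0.877) and by -1.21 without that array (adjusted p = 0.00527). Abca8b, a neighbour of Abca5 on chromosome 11, had 31.9, 39.8 and 219 against 63.2, 81.3 and 55.1 on chip B. Its difference was 0.07 with all arrays (adjusted p = 0.949) and -0.66 without that array (adjusted p = 0.0214). The chip C probe set of Abca8b, at 8.73, 8.34 and 9.26 against 28.4, 14.8 and 18.8, had no such rise in replicate 3 and differed by -0.55 (adjusted p = 0.069) with all arrays and by -0.56 (adjusted p = 0.0449) without it. Of the other subfamily A members on chip C, Abca14 differed by -0.06 and 0.19 over 2 probe sets, the first of which was -0.36 without that array (adjusted p = 0.0471), and Abca15 by -0.35, and none passed with all arrays.

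Some marker genes of other cells were bright on the same array. Each is represented by its brightest probe set, and that mean included replicate 3, so the choice can favour a rise there. The Csf1r, Glul and Sox2 probe sets carry the _r_at suffix rather than the plain one. Any other probe sets of the marker genes are not shown. Among the ABC members, the Abcg8 probe set, both Abca14 probe sets and the chip B probe set of Abcb10 carry this suffix too. So do the Abcc5 probe set that passed only without replicate 3 and the probe set of Nr1i3, a nuclear receptor given below. Csf1r, a receptor of microglia and macrophages, had 37.3, 41.2 and 930 intensity units in GFP-positive arrays, against 94.3 to 112 in GFP-negative arrays. Glul, glutamine synthetase of Müller glia, had 136, 156 and 986 in GFP-positive arrays, against 117 to 142 in GFP-negative arrays. Rom1, a photoreceptor outer segment protein, had 36.1, 41.6 and 343 in GFP-positive arrays, against 114 to 134 in GFP-negative arrays. None of them passed with all arrays. Without replicate 3, Csf1r (-1.13, adjusted p = 0.00108, limma) and Rom1 (-1.35, adjusted p = 0.000635) passed as lower, and Glul did not pass (0.15). Other markers of the same cells went both ways in replicate 3. Vim of Müller glia had 37.9, 45.25 and 108 in GFP-positive arrays, against 62.0 to 70.1 in GFP-negative arrays. It passed as lower without replicate 3 (-0.50, adjusted p = 0.0141). Aqp4 (17.6, 16.8 and 30.7, against 53.4 to 90.6) and Slc1a3 on chip B (32.6, 34.1 and 66.2, against 308 to 623) of Müller glia also rose there. The leukocyte markers Cd68 (38.8, 42.3 and 75.1, against 36.9 to 39.3) and Ptprc (29.3, 34.3 and 56.7, against 34.5 to 41.8) were also highest there. Sag, the rod arrestin, was not bright there, at 65.2, 271 and 72.6 in GFP-positive arrays, against 334 to 894 in GFP-negative arrays. Nor was Rlbp1 of Müller glia, at 28.9, 37.9 and 26.8, against 678 to 1478. Sox2 of the same cells was lowest there, at 44.4, 42.9 and 21.7, against 849 to 1222. Dkk3 (13.0, 15.8 and 14.3) and Hes5 (32.3, 34.8 and 31.6) did not rise there either. In each of these lists 1 gene carried most of the excess of replicate 3, and no marker was at 0. The 10 leukocyte markers summed to 541, 499 and 1433 in GFP-positive arrays, against 413 to 443 in GFP-negative arrays, and the 9 without Csf1r to 503, 458 and 503, against 313 to 331. C1qb and Laptm5, the leukocyte markers that passed as higher, were lowest in replicate 3 among the GFP-positive arrays, at 53.2 and 133. The 7 Müller glia markers on chip A summed to 310, 350 and 1219, against 2509 to 3733, and the 6 without Glul to 174, 193 and 233, against 2368 to 3616. The 9 photoreceptor markers summed to 429.5, 687 and 760, against 842 to 1557, and the 8 without Rom1 to 393, 645 and 416, against 720 to 1423. Of the 75 ABC probe sets, 4 lay more than 1 above replicates 1 and 2 on the log2 scale in replicate 3 (Abca3 on chip C, Abca4, Abca8b on chip B and Abcg8) and 2 more than 1 below (Abca5 and Abcb1a), or 5.33% and 2.67%, against 4.12% and 1.17% of all probe sets. The part of other cells in these values was not tested. FVB/N mice are also known to carry a mutation of Pde6b under which rods degenerate, and it was shared by both populations.

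**Figure D4:**
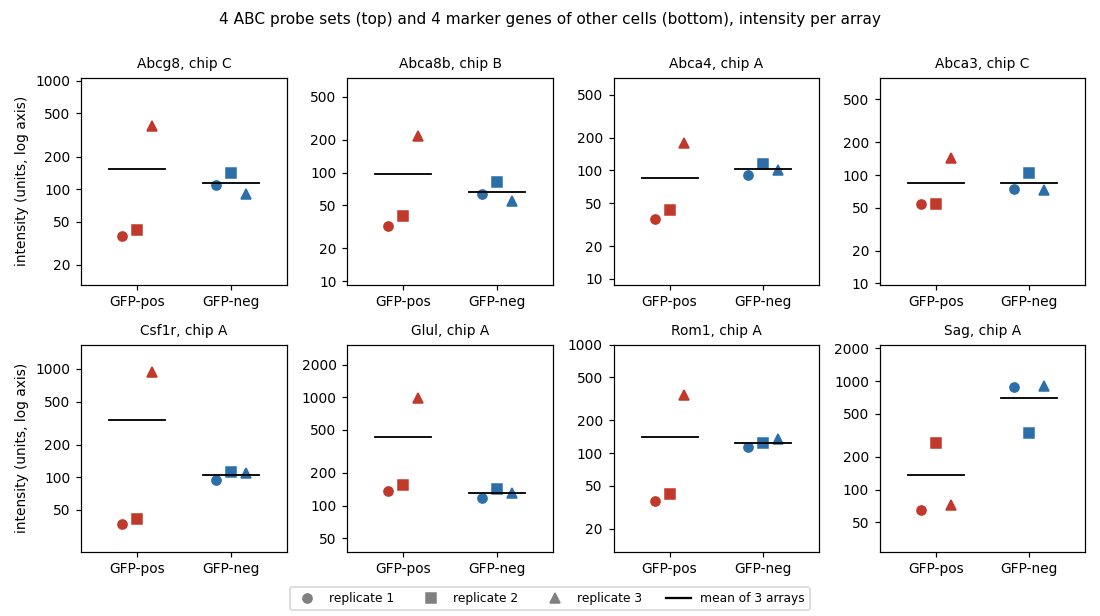
Intensity per array (log axis, intensity units, the same fold range in every panel) of 4 ABC probe sets in the top row and 4 marker genes of other cells in the bottom row, GFP-positive arrays in red on the left and GFP-negative arrays in blue on the right. GFP-positive replicate 3 (triangle) lies above all other arrays for every gene shown except Sag.

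Without GFP-positive replicate 3, 11 ABC probe sets were higher and 9 lower, of which 8 had also passed with all arrays. Over all probe sets, 13% were then higher and 13.1% lower. The 12 that passed only without it were 6 higher (both dim Abcg2 probe sets and 1 each of Abca9, Abcc5, Abce1 and Abcf2) and 6 lower (both Abca8b probe sets and 1 each of Abca3, Abca4, Abca14 and Abcg8). Abcd3 passed only with all arrays, at -1.34 (adjusted p = 0.0525) without it.

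**Figure D5:**
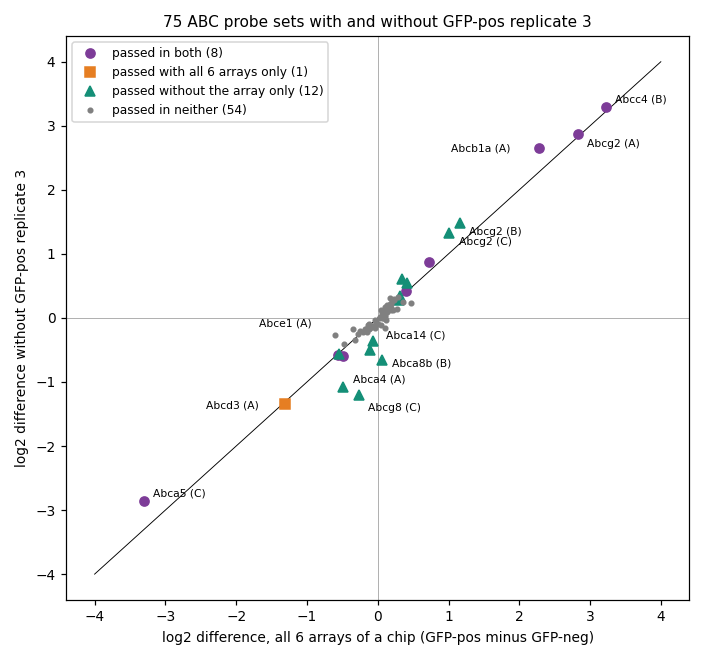
Log2 difference (GFP-positive minus GFP-negative) of the 75 ABC probe sets with all 6 arrays of a chip (x axis) and without GFP-positive replicate 3 (y axis), with the diagonal of equal values. Abcc4, Abcg2 on chip A, Abcb1a and Abca5 pass in both and stay far from 0, while Abca4, Abcg8 and Abca8b on chip B lie below the diagonal.

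The 9 probe sets that passed fell into 2 groups when each array was left out in turn. Abcc4, Abcg2 on chip A, Abcb1a and Abca5 passed in all 6 omissions, with adjusted p from 6.32e-06 to 0.000463 for Abcc4, 0.000441 to 0.0054 for Abcg2, 0.000144 to 0.0295 for Abcb1a and 0.00212 to 0.0359 for Abca5. The other 5 each lost the call in some. Abcd3 lost it whichever array was left out (adjusted p from 0.0525 to 0.122). Abca3, Abcc9 and Abcf1 kept it only without GFP-positive replicate 3, and their adjusted p reached 0.127, 0.149 and 0.127. Abcd2 lost it without GFP-positive replicate 1 (0.0793), GFP-positive replicate 2 (0.0836) or GFP-negative replicate 3 (0.0544).

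Genes that work with these transporters went both ways. Of the 3 ABC genes under other symbols, Tap1, which feeds peptides to class I antigen presentation, was higher at 40.5, 44.8 and 28.8 against 16.2, 18.8 and 16.03 (0.70, adjusted p = 0.0145). Its partner Tap2 was 38.7, 57.1 and 49.2 against 32.5, 32.6 and 29.3, a difference of 0.43 that missed the threshold (adjusted p = 0.0574), and Cftr (0.13) also missed it. Of 20 measured partners and regulators, 4 were higher and 3 lower, with a median difference of 0.04, where 7.42% of all probe sets were higher and 8.86% lower. The higher ones were Tapbp, which bridges the Tap transporter to class I molecules (1.52), Nfe2l2, a stress-response transcription factor known to induce Abcc genes (1.70), the membrane linker Msn, which anchors P-glycoprotein to actin (1.59), and Rxrb, a partner of the sterol-sensing nuclear receptors (0.35). The lower ones were Apoe, the lipoprotein acceptor of effluxed cholesterol (-2.01), and the Pex3 and Pex19 genes given above. When GFP-positive replicate 3 was left out, Msn did not pass (1.57, adjusted p = 0.0591), Pdzk1, a scaffold protein for membrane transporters, passed as higher (0.70, adjusted p = 0.00932) and Nr1i3, a xenobiotic-sensing nuclear receptor, passed as lower (-0.51, adjusted p = 0.027). Of 10 solute carriers of the barrier, 8 were higher and none lower, with a median of 2.43. The list of solute carriers was chosen with earlier results of these data known, so its count is a description.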

How the data were processed

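RNA of GFP-positive and GFP-negative retinal cells was measured on 1-colour Affymetrix MGU74v2 arrays, 18 in all. Each deposited file gives 1 intensity per probe set on a linear scale. The authors' probe summary, background correction and normalization are not stated in the labels or headers, and other choices there could shift the differences. The array medians lay close together within each chip, so the deposited scaling was kept. Sample titles gave the groups and the replicate numbers.

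Gene names came from the platform annotation. Entrez identifiers of 10817, 10550 and 7677 probe sets with 1 symbol on chips A, B and C matched the mouse RefSeq table, and 0 symbols changed. Each chip was fitted alone over all its probe sets (12422, 12411 and 11868) with limma 3.58.1 in R 4.3.3 (lmFit and eBayes, two-sided) on log2 of intensity plus 16, with p-values adjusted by Benjamini-Hochberg over each chip and called under 0.05. The fit was tested on simulated data. These had no array set apart and changed only probe sets brighter than the chip's median, so the test did not cover such an array or changes in dimmer probe sets. All 43 ABC genes are named, and the differences of some of their probe sets are given only as ranges. Genes of the other lists are represented by the probe set with the highest mean on the first chip that holds them. Those genes are named where an ABC result turns on them. Beyond that rule, genes behind small counts (C1qb, Laptm5 and the partners and regulators that passed) were named after their values were seen. Kdr, Pecam1, Vim, Aqp4, Slc1a3, Sox2, Dkk3, Hes5, Cd68 and Ptprc were also named in this way. The members and lists were chosen with earlier results of these data known. Whether the replicate numbers pair the arrays is not known, and the main fit used no pairing. Deviations of same-numbered arrays correlated at -0.37 to 0.29, with 3 of 9 pairs over 0.1. The replicate 1 pair was positive on every chip and the other pairs were negative. With 3 arrays per population and GFP-positive replicate 3 apart, these correlations cannot exclude pairing. Alternatives are given in the closing section. Figures were drawn with matplotlib 3.10.9.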

Additional observations from a re-analysis of the deposited data

How the results depend on the processing

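Abcc4, Abcg2 on chip A, Abcb1a and Abca5 kept their direction and passed under all 17 alternatives run. The other 5 called probe sets each lost the call under several. With all arrays and the settings given above, 5 ABC probe sets (5 genes) were higher and 4 (4 genes) lower. With each array left out in turn, 3 to 11 probe sets (3 to 9 genes) were higher and 1 to 9 (1 to 8 genes) lower. Array weights gave 15 higher (12 genes) and 10 lower (10 genes). The share of all probe sets called was counted only for the main settings and without GFP-positive replicate 3. The counts under the other alternatives therefore cannot set the family apart from the rest. A pseudocount of 64 gave 1 lower (1 gene). Median-centred arrays gave 3 higher (3 genes). Restriction to probe sets with a mean intensity of at least 50 gave 2 lower (2 genes). The replicate number as a block gave 2 lower (2 genes), and with it Abca3, Abcc9 and Abcd2 did not pass. The labels do not say that the numbers pair the arrays. An adjusted p under 0.01 gave 3 higher (3 genes) and 1 lower (1 gene), and a 2-fold minimum 3 higher (3 genes) and 2 lower (2 genes). A pseudocount of 1, quantile normalization, limma-trend with robust eBayes, adjustment over the 3 chips together and, for the counts of probe sets, restriction to the plain probe set suffix stayed within 1.5 times the counts given above. Abca8b on chip B reversed without GFP-positive replicate 3 (-0.66, against 0.07 with all arrays), and with each array left out in turn it lay between -0.66 and 0.49. The cause of the other changes was not tested. Signal limits the dim probe sets: 41 of 75 had a mean under 50, and presence calls were not used here.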
